A study of Homo sapiens with 6 samples.

Results

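Both genotypes of H1 human embryonic stem cells edited at DICER1 were set together against the unedited cells, across every gene of the deposited table. The comparison took 4 edited libraries, 2 from cells hemizygous and 2 from cells homozygous for DICER1 S1344L, and 2 wild-type libraries, which are 6 of the 6 samples of the series. All 16199 listed genes were compared. The question was which transcripts differed with the same sign in all 4 edited libraries, both against each of the wild-type libraries and against the wild-type library that carries the same replicate number. H1 is an established human embryonic stem cell line, and the edit was made with CRISPR-Cas9 in both genotypes. The labels name no further allele, treatment or time, do not describe the other DICER1 allele of the hemizygous cells, and do not say how many clones each genotype comes from. Whether replicates were grown as independent cultures is likewise not stated, so p-values here reflect the variation among these libraries alone, and that variation could be technical.

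DICER1 encodes the ribonuclease that cuts precursor hairpins into mature microRNAs (miRNAs). Its RNase IIIb domain makes the cut that frees the 5p strand of a hairpin and its RNase IIIa domain the cut that frees the 3p strand. The altered serine lies in the RNase IIIa domain and is a recurrent site of mutation in tumours. Its position alone does not say which strand the change affects. A mature miRNA guides Argonaute proteins to messenger RNAs that pair with its seed, bases 2 to 8, and lowers their stability and translation. Human embryonic stem cells carry abundant miRNAs of the miR-302 and miR-17 to 92 families, and they depend on FGF and Nodal signalling to stay pluripotent.

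The following miRNAs, with the seed in capitals, represent the pluripotency-linked miR-302 family and 2 seed families picked from 18 after their values were seen. In these 2 the edited libraries lay above both wild-type libraries after a correction that was also chosen with the data seen. Without that correction the signs were mixed among the edited libraries, and no test was made. The mature sequences are from RefSeq (GRCh38.p14), where miR-302a-3p lies at chr4:112648186-112648208 on the minus strand, miR-17-5p at chr13:91350618-91350640 and miR-92a-3p at chr13:91351361-91351382, both on the plus strand.
hsa-miR-302a-3p: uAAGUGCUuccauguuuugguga
hsa-miR-17-5p: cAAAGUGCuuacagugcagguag
hsa-miR-92a-3p: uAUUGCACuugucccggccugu

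Matching stretches of 3′ untranslated regions (UTRs) are shown for genes to which the results return, with the letters that pair with the seed in capitals, written 5′ to 3′ on the strand of the mRNA and taken from the longest 3′ UTR that GENCODE release 29 (GRCh38) gives for the gene. CDC37L1 and KDR were higher in the edited libraries and hold a miR-17 match, at UTR bases 86 to 92 of 2286 and 1553 to 1559 of 1682. GAP43, also higher, holds a miR-25/92 match at bases 377 to 383 of 608. LEFTY1 and LEFTY2 were lower and hold a miR-302 match, at bases 248 to 254 of 445 and 171 to 177 of 843. The KDR letters also contain a miR-302 match shifted by 1 base, so that 1 stretch counts for both families. The stretches shown are a selection, and matches were not confined to 1 direction. The lower genes MTCH2, NDUFS1 and B3GALT5 also hold miR-17 matches, and the lower gene CYTH2 holds a miR-25/92 match. FGF4, which was higher, holds a miR-302 match.
CDC37L1, miR-17 match: ttatgggtgctGCACTTTatttt
KDR, miR-17 match: ctaaaaacccaGCACTTTggggg
GAP43, miR-25/92 match: tccaagtgtgtGTGCAATgttcc
LEFTY1, miR-302 match: actatattctaAGCACTTacatg
LEFTY2, miR-302 match: cacccatcctaAGCACTTacgtg

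Expression is given in CPM, the counts of a gene divided by its library's total after scaling with trimmed-mean (TMM) factors. CPM is not scaled by gene length, so levels are compared between libraries and not between genes. The libraries held 38164848 to 52924532 counts. The pluripotency genes were present in every library: SOX2 was at 341 to 419 CPM, NANOG at 143 to 198 CPM and LIN28A at 1627 to 2473 CPM. POU5F1 was at 84.4 to 129 CPM, with the reservation that near-identical copies of POU5F1 and NANOG elsewhere in the genome can share their reads. Of 8 genes of definitive endoderm only CXCR4 and HHEX were in the table, at 0.895 to 2.16 CPM and 0.93 to 2.06 CPM. Every listed gene exceeded 0.5 CPM in at least 3 libraries, so a gene above that level only in the 2 wild-type libraries could not be in the table, whereas a gene above it only in the edited ones could. The replicate number carried more of the variation than the genotype: 47.77% of the summed squares of log2 CPM lay along the number and 14.46% along edited against wild type. On the first principal component, 59.1% of the variance, hemizygous 1 and wild type 1 lay together at -39.8 and -34.5, and the other 4 libraries lay at 3.15 to 28.5.

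DICER1 mRNA itself was measured at 169.4 and 126.1 CPM in the first and second wild-type library, at 118.4 and 96.4 CPM in the hemizygous pair and at 128.9 and 117.9 CPM in the homozygous pair. Pairs of values below keep this order. Each edited library lay below the wild-type library of its number, but homozygous 1 lay just above wild type 2, so the groups overlapped. The log2 difference was -0.36 ± 0.16 (SE) and did not pass the test (edgeR, unadjusted p = 0.0564, Benjamini-Hochberg adjusted p = 1), and it was -0.12 without wild type 1. A gene's total count does not read the edited base, so this level does not check the edit.

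Few genes separated edited from wild-type cells clearly. DESeq2 called 5 genes whether or not its model held the replicate number. They were the serotonin receptor gene HTR7, the FGF ligand gene FGF4, ANKRD46, CDC37L1 and NDUFS1, the last resting largely on wild type 1. The Nodal antagonist gene LEFTY1 and the FGF target ETV4 lay below both wild-type libraries but were less certain. LEFTY2 stood apart within replicate numbers only. DESeq2 called LEFTY1 and ETV4 only with the replicate number as a block. With the quasi-likelihood test of edgeR and Benjamini-Hochberg adjustment over all 16199 genes, 0 genes were higher (0%) and 0 lower (0%) at an adjusted p under 0.05, with and without the replicate number as a block. The lowest adjusted p was 1 without the block and 0.4725 with it. At an unadjusted p under 0.05 in edgeR, 199 genes were higher (1.23%) and 174 lower (1.07%). DESeq2, with the same arms and Benjamini-Hochberg adjustment, called 3 genes higher (0.0185%) and 5 lower (0.0309%) of 16190. Once the replicate number entered the model as a block, DESeq2 calls numbered 27 higher (0.197%) and 15 lower (0.11%) of 13686, and limma-voom without the block called 0 in either direction. Of the DESeq2 calls, 5 genes were shared by both fits, 3 were called only without the block (MIR4458HG, which got no adjusted p with it, FBL and CHORDC1) and 37 only with it. Which fit is apt rests on what the replicate numbers mark, which the labels do not say.

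Without pairing, all 4 edited libraries lay above both wild-type libraries for 695 genes (4.29%) and below both for 742 (4.58%). With pairing, all 4 same-number differences were above 0 for 1966 genes (12.1%) and below 0 for 2111 (13%). The 4 differences draw on 1 wild-type library per number, so they are not independent, and these counts alone do not set edited cells apart. Most separations were narrow. The median distance between the nearest edited and wild-type library was 0.067 log2 units for genes above and 0.0562 for genes below, and it reached 0.5 for 5 genes above and 10 below. Of the 42 genes that DESeq2 called with the block, 37 did not overlap between the groups and all 42 had 1 sign in the 4 same-number differences. The call used these same libraries and their numbers, so both counts largely follow from it and add no separate evidence.

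HTR7, which encodes a G-protein-coupled serotonin receptor, was the lower gene with the smallest adjusted p in both DESeq2 fits. It was at 25.5 and 25.6 CPM in wild type, 9.26 and 13.5 CPM in the hemizygous and 8.02 and 8.98 CPM in the homozygous libraries. All 4 edited libraries lay well below both wild-type libraries, which were nearly equal. Mean expression was 25.6 ± 0.075 CPM (SD, n = 2) in wild type and 9.95 ± 2.45 CPM (SD, n = 4) in edited cells, 2.57-fold lower, and the log2 difference of -1.36 ± 0.20 (SE) stayed between -1.55 and -1.27 when each library was left out. DESeq2 gave an adjusted p of 0.00014, and 3.64e-08 with the block; edgeR gave 0.000214 unadjusted and 1 adjusted. HTR7 lies at chr10:90740823-90857698 (GRCh38) on the minus strand. Of 8 serotonin receptor genes measured, 2 lay below and 0 above both wild-type libraries, the other being HTR1F, at 1.36 to 1.43 CPM in wild type and 0.485 to 0.939 CPM in the edited libraries. The median log2 difference of the 8 was -0.17, against -0.0028 for all genes. By genotype the median was 0.01 in the hemizygous and -0.34 in the homozygous libraries, and 3 of the 8 differences were above 0. The list contains HTR7 itself and was chosen with earlier results known, so its counts and median add no separate evidence. Over all genes 4.58% lay below and 4.29% above both wild-type libraries.

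**Figure D1:**
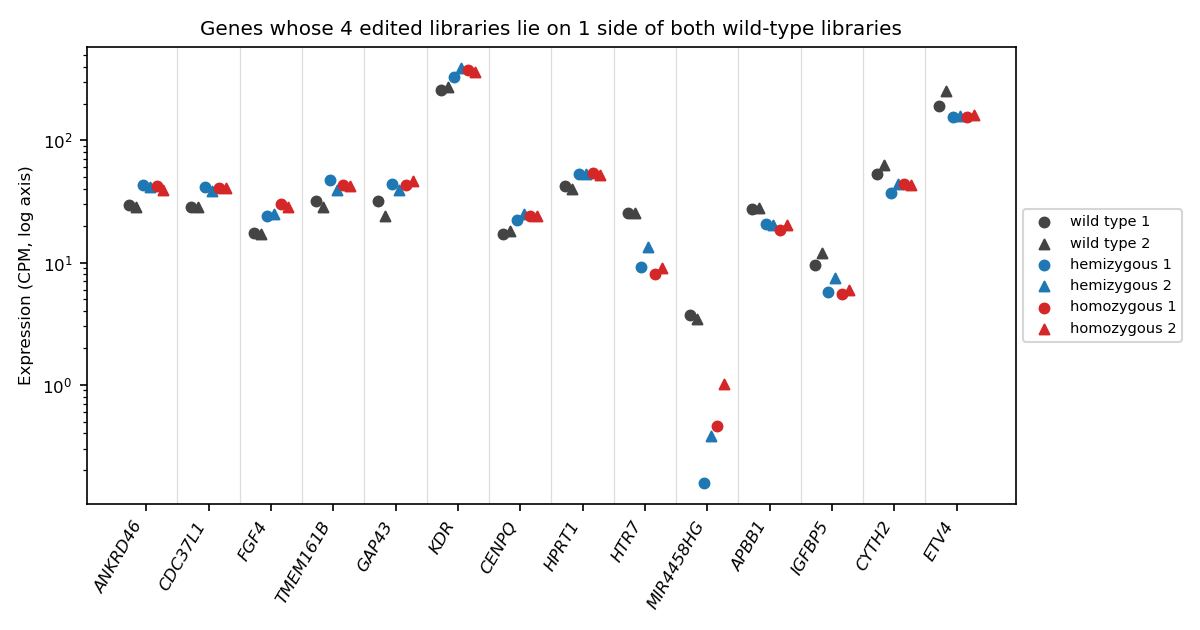
Expression in each library (CPM, log axis) of genes among those with the lowest unadjusted p in each direction, circles for replicate 1 and triangles for replicate 2. HTR7 goes from 25.5 and 25.6 CPM in wild type to 8.02 to 13.5 CPM in edited cells, and MIR4458HG is lower at levels of 3.70 CPM and under.

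FGF signalling genes lay on opposite sides of wild type: the ligand gene FGF4 was higher in the edited libraries while some feedback regulators and targets of the ERK pathway, the sprouty genes, ETV4 and ETV5, were lower. FGF4 was at 17.49 and 17.01 CPM in wild type, 23.99 and 25.1 CPM in hemizygous and 30.2 and 28.3 CPM in homozygous libraries. Every edited library lay above both wild-type libraries, and the mean was 1.56-fold higher. The log2 difference was 0.64 ± 0.13 (SE), 0.51 in the hemizygous and 0.76 in the homozygous libraries, which share the wild-type libraries as control (DESeq2 adjusted p = 0.0394 and 0.005 with the block, edgeR unadjusted p = 0.00138). ETV4, a transcription factor induced by FGF and ERK, was at 191 and 254 CPM in wild type, 156 and 159 CPM in hemizygous and 155 and 160 CPM in homozygous libraries. The 4 edited libraries were close together and below both wild-type ones (log2 difference -0.50 ± 0.12, DESeq2 adjusted p = 0.0136 with the block and 0.384 without). Left without wild type 2, the ETV4 difference was -0.26.

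The sprouty genes SPRY1, SPRY2 and SPRY4 encode feedback inhibitors of receptor tyrosine kinase signalling. SPRY2 was at 77.5 and 71.1 CPM in wild type, 66.8 and 43.1 CPM in hemizygous and 43.6 and 41.6 CPM in homozygous libraries, a log2 difference of -0.61 ± 0.20. Hemizygous 1 was the edited library nearest to wild type here, as it was for SPRY1, SPRY4 and DUSP6. SPRY1 was at 88.8 to 97.3 CPM in wild type and 55.0 to 78.7 CPM in edited libraries. SPRY4, at 265 to 292 CPM in wild type and 165 to 267 CPM in the edited libraries, and DUSP6, the ERK phosphatase, at 27.0 to 29.9 CPM against 11.7 to 27.3 CPM, each overlapped narrowly while all 4 same-number differences were below 0. ETV5, the close relative of ETV4, was at 52.5 and 64.7 CPM in wild type and 39.3 to 49.9 CPM in edited libraries.

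Of the 21 genes listed for FGF ligands, receptors and ERK feedback, all were measured, 2 lay above and 5 below both wild-type libraries, and 3 and 8 had all same-number differences above and below 0. Over all genes these shares were 4.29% and 4.58%, and 12.1% and 13% with pairing. The 2 above were FGF4 and the receptor gene FGFR2, at 151.8 to 158.1 CPM in wild type and 160 to 191 CPM in edited libraries. The 5 below were SPRY1, SPRY2, ETV4, ETV5 and the receptor gene FGFR3. At an unadjusted edgeR p under 0.05, 1 gene was higher and 5 were lower, namely SPRY1, SPRY2, SPRY4, ETV4 and ETV5. At that threshold 1.23% of all genes were higher and 1.07% lower. The list's median log2 difference was -0.12. The ligand genes FGF2 (257 to 366 CPM in wild type, 314 to 461 CPM edited) and FGF8 (3.38 to 6.07 CPM and 5.96 to 7.80 CPM) overlapped between the groups. So did the other feedback and target genes SPRED1, SPRED2, DUSP4, DUSP5, ETV1 and IL17RD, whose same-number differences had mixed signs and whose log2 differences ran from -0.12 to 0.11.

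In the Nodal pathway both LEFTY antagonist genes were lower and the repressor gene SKIL higher, while most of the listed genes overlapped between the groups. LEFTY1 and LEFTY2 encode secreted inhibitors of Nodal, which Nodal signalling itself induces. They are related genes close together on chromosome 1, and where they share reads they are not separate observations. LEFTY1 was at 11.9 and 9.01 CPM in wild type, 5.40 and 0.588 CPM in hemizygous and 2.31 and 0.862 CPM in homozygous libraries. All edited libraries lay below both wild-type libraries, although they differed widely among themselves (log2 difference -2.20 ± 0.74, edgeR unadjusted p = 0.0186, DESeq2 adjusted p = 0.0455 with the block and 1 without). LEFTY2 was at 14.6 and 5.63 CPM in wild type, 6.88 and 2.24 CPM in hemizygous and 5.62 and 2.02 CPM in homozygous libraries. The groups overlapped, because each number 1 library was the higher of its genotype, but within numbers the 4 log2 differences were alike, -1.08, -1.31, -1.37 and -1.46. DESeq2 with the block gave LEFTY2 an adjusted p of 9.30e-08 and without it 1, and the unpaired log2 difference of -1.28 was -0.43 without wild type 1.

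SKIL, whose product SnoN restrains SMAD transcription factors, was at 272 and 147 CPM in wild type, 371.8 and 304 CPM in hemizygous and 353 and 275 CPM in homozygous libraries. The lowest edited library and wild type 1 were almost level, and wild type 2 was far lower. The log2 difference was 0.64 ± 0.25 and was 0.27 without wild type 2 (DESeq2 adjusted p = 0.00163 with the block and 1 without). NODAL overlapped, at 53.8 and 14.4 CPM in wild type and 22.7 to 42.8 CPM in edited libraries. Of 24 genes measured for Nodal and TGF-beta signalling, 4 lay above and 2 below both wild-type libraries, where all genes gave 4.29% and 4.58%. The median log2 difference of the 24 was 0.01. The 4 above were SKIL, the Nodal co-receptor gene TDGF1, SMAD2 and BMP4, and the 2 below were LEFTY1 and the receptor gene ACVR2A, whose groups lay 0.01 log2 units apart.

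**Figure D2:**
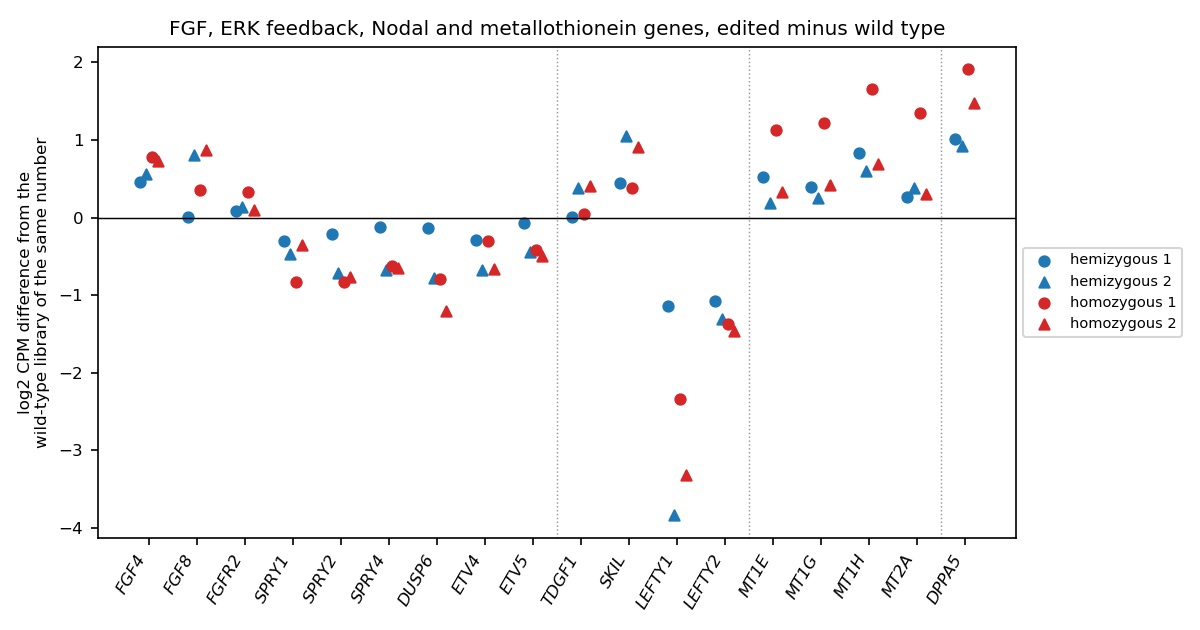
Difference in log2 CPM of each edited library from the wild-type library of the same number, for FGF, ERK feedback, Nodal and metallothionein genes and DPPA5. The sprouty genes, DUSP6, ETV4, ETV5 and both LEFTY genes lie below 0 in all 4 differences, and FGF4, SKIL, the metallothionein genes shown and DPPA5 lie above 0 in all 4.

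DPPA5 and the metallothionein genes stood apart only within replicate numbers. DPPA5, a marker of early pluripotent cells, was at 3.24 and 8.03 CPM in wild type, 6.60 and 15.3 CPM in hemizygous and 12.3 and 22.4 CPM in homozygous libraries. Each number 2 library was the higher of its genotype, so the groups overlapped, while every edited library exceeded its wild-type counterpart (DESeq2 log2 difference with the block 1.38 ± 0.26, adjusted p = 0.000664, and 1 without the block), and the unpaired difference of 1.33 was 0.82 without wild type 1. Metallothioneins bind zinc and copper. Of 8 measured, 0 lay above or below both wild-type libraries and 7 had all same-number differences above 0, where all genes gave 12.1%, with a median log2 difference of 0.52. The median same-number difference was 1.17 in homozygous 1 and 0.31 to 0.38 in the other edited libraries. MT1H was at 19.96 and 41.4 CPM in wild type, 35.4 and 63.0 CPM in hemizygous and 63.0 and 66.7 CPM in homozygous libraries, and wild type 2 exceeded hemizygous 1 (DESeq2 adjusted p = 0.012 with the block and 1 without). The MT1 genes are near copies of each other in 1 cluster, so they share reads and are not separate observations. SLC30A1, which exports zinc from cells, was at 66.2 and 52.5 CPM in wild type and 71.1 to 86.0 CPM in edited libraries (DESeq2 adjusted p = 0.0189 with the block and 1 without).

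Cholesterol synthesis genes were mostly lower by small amounts that the replicate numbers exceeded. Of 25 measured, 0 lay above and 2 below both wild-type libraries (MVD and SREBF2), against 4.29% and 4.58% of all genes. With pairing, 12 had all same-number differences below 0 and 0 above, where all genes gave 13% and 12.1%. The median log2 difference was -0.18, and 2 of the 25 differences were above 0. By genotype the median was -0.06 in the hemizygous and -0.28 in the homozygous libraries. HMGCS1, which catalyses an early step of the pathway, was at 693 and 358 CPM in wild type, 661 and 297 CPM in hemizygous and 396 and 278 CPM in homozygous libraries. Its levels followed the replicate number more than the genotype, and no member reached an unadjusted edgeR p under 0.05.

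Among the named genes higher in edited libraries, ANKRD46 and CDC37L1 had the lowest unadjusted p. ANKRD46, an ankyrin repeat gene, was at 29.6 and 28.4 CPM in wild type, 43.0 and 41.6 CPM in hemizygous and 42.6 and 39.0 CPM in homozygous libraries (log2 difference 0.52 ± 0.10, DESeq2 adjusted p = 0.00732, and 0.000867 with the block). CDC37L1, related to the HSP90 cochaperone CDC37, was at 28.7 and 28.3 CPM in wild type and 38.2 to 41.9 CPM in edited libraries (log2 difference 0.51 ± 0.10, DESeq2 adjusted p = 0.00732, and 0.00163 with the block). Both genes were about as high in hemizygous as in homozygous cells, with log2 differences of 0.54 and 0.49 for ANKRD46 and 0.49 and 0.52 for CDC37L1 from the shared wild-type libraries. TMEM161B, at 32.0 and 28.5 CPM in wild type and 39.6 to 47.7 CPM edited, was higher together with TMEM161B-DT, which starts on the opposite strand and overlaps it. The libraries do not keep strand, so reads of that overlap cannot be assigned to 1 of the pair. The salvage enzyme gene HPRT1 (42.6 and 40.0 CPM in wild type, 52.5 to 53.7 CPM edited), the centromere gene CENPQ (17.2 and 18.2 CPM, 22.3 to 25.0 CPM) and the calcitonin receptor gene CALCR (3.72 and 5.04 CPM, 6.49 to 10.1 CPM) completed the higher genes with the lowest unadjusted p, beside 4 genes given with their groups. Of the 6 higher genes with the widest gap, the muscle protein gene NEB was at 7.67 and 6.86 CPM in wild type and 10.1 to 12.98 CPM in edited libraries, and the homeobox gene PROX1 at 4.38 and 4.35 CPM and 5.74 to 6.70 CPM.

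A few genes listed as neural or mesodermal markers lay above wild type. ZIC1, a transcription factor of dorsal neural ectoderm, was at 17.9 and 16.3 CPM in wild type, 41.0 and 58.9 CPM in hemizygous and 28.2 and 28.0 CPM in homozygous libraries. The groups were well separated and the hemizygous libraries were the highest (log2 difference 1.19 ± 0.32, DESeq2 adjusted p = 0.143, and 0.423 with the block). FABP7, a radial glia fatty acid binding protein gene, was at 2.99 CPM in both wild-type libraries and 4.22 to 8.15 CPM in edited ones. These were the 2 of 6 measured neural ectoderm genes that lay above both wild-type libraries, 0 lay below, and the median log2 difference of the 6 was -0.03. The others, ZIC2, NES, OTX2 and SOX3, overlapped and had negative log2 differences, from -0.11 to -0.01. GAP43, a growth cone protein gene, was at 32.0 and 24.1 CPM in wild type and 39.2 to 46.6 CPM in edited libraries (log2 difference 0.62 ± 0.14, DESeq2 adjusted p = 0.00525 with the block and 0.139 without). With DCX it made 2 of 12 neuron genes above, 6 of the 12 differences were above 0, and the list's median was -0.0026. For both lists the shares over all genes were 4.29% above and 4.58% below.

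KDR, which encodes VEGF receptor 2, was at 257 and 276 CPM in wild type, 332 and 393 CPM in hemizygous and 376 and 360 CPM in homozygous libraries (log2 difference 0.46 ± 0.10, DESeq2 adjusted p = 0.00276 with the block and 0.101 without). Of the 8 listed mesoderm genes 4 were measured, with a median log2 difference of 0.61. Of the 4, 3 lay above both wild-type libraries and 0 below, where all genes gave 4.29% and 4.58%. The others of the 3, PDGFRA and HOXB1, did not exceed 2.63 CPM in any library, and TBX6 overlapped between the groups. KDR was already at 257 and 276 CPM in unedited stem cells, so its higher level is not by itself a sign of mesoderm. In bulk RNA a higher marker can come from more cells of a type or from more RNA per cell, which cannot be told apart here.

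The core pluripotency list held 24 genes, with a median log2 difference of 0.08. Of these, 4 lay above both wild-type libraries and 0 below, where all genes gave 4.29% and 4.58%. The 4 were TDGF1, SALL4, L1TD1 and ESRG, the last a noncoding RNA of pluripotent cells at 2142 and 2332 CPM in wild type and 2524 to 3028 CPM in edited libraries. Clustered protocadherins, cell adhesion proteins of neural and stem cells, gave 7 genes above and 0 below of 47, all 7 in the gamma cluster. The split by cluster was chosen after the values were seen: the 21 gamma genes had a median log2 difference of 0.37, and the 26 alpha and beta genes, of which 0 lay above, 0.03. PCDHGA6, the one with the lowest unadjusted p, was at 2.54 and 3.53 CPM in wild type and 5.16 to 6.41 CPM in edited libraries (log2 difference 0.93 ± 0.21, DESeq2 adjusted p = 0.0192 with the block and 0.0745 without). Gamma genes share their last exons, so reads can be split between them and they are not separate observations.

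Lower genes beyond HTR7 included an epithelial claudin and a glycolipid enzyme. CLDN4, a tight junction claudin gene, was at 24.6 and 37.8 CPM in wild type, 17.2 and 22.3 CPM in hemizygous and 17.9 and 19.2 CPM in homozygous libraries (log2 difference -0.70 ± 0.19, DESeq2 adjusted p = 0.00276 with the block and 0.498 without), and its difference was -0.34 without wild type 2. Of 22 epithelial junction genes, 5 lay below and 1 above both wild-type libraries (CLDN4, PKP3, JUP and ESRP2 among those below, ESRP1 above), with a median log2 difference of -0.10, while E-cadherin gene CDH1 overlapped at 475 to 564 CPM against 393 to 599 CPM. B3GALT5, which builds the globo-series glycolipids that carry the stem cell antigens SSEA3 and SSEA4, was at 130 and 109 CPM in wild type, 96.4 and 72.7 CPM in hemizygous and 62.8 and 65.5 CPM in homozygous libraries. All edited libraries lay below both wild-type ones (log2 difference -0.68 ± 0.18, DESeq2 adjusted p = 0.0229 with the block and 0.498 without), and 3 of 12 genes of that list lay below and 0 above. For this list and the junction list, the shares over all genes were 4.58% below and 4.29% above.

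MIR4458HG, a noncoding host transcript, was at 3.70 and 3.48 CPM in wild type, 0.156 and 0.380 CPM in hemizygous and 0.463 and 1.01 CPM in homozygous libraries (log2 difference -2.84 ± 0.51, DESeq2 adjusted p = 0.00732). APBB1, whose product binds the amyloid precursor protein tail, was at 27.5 and 28.0 CPM in wild type and 18.6 to 20.6 CPM in edited libraries. IGFBP5, a secreted binder of insulin-like growth factors, was at 9.49 and 12.1 CPM against 5.49 to 7.46 CPM. CYTH2, an exchange factor for ARF GTPases, was at 53.4 and 62.7 CPM against 37.1 to 43.7 CPM. These 3 genes did not overlap between the groups and were called by DESeq2 only with the block. TMSB4XP6, at 49.9 and 53.5 CPM against 34.5 to 41.5 CPM, is a copy of TMSB4X whose reads it can share. The fucose kinase gene FCSK (6.69 and 7.78 CPM, 4.93 to 4.98 CPM) and CDC42EP1 (13.2 and 14.4 CPM, 8.09 to 10.3 CPM), a CDC42 effector gene, were in the group with the widest gaps.

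Some of the largest fold differences rested on 1 library. EEF1B2, a translation elongation factor gene, was at 4.68 and 65.0 CPM in wild type and 2.25 to 3.99 CPM in edited libraries, FBL at 3.18 and 20.6 CPM against 1.30 to 3.13 CPM, and CHORDC1 at 1.39 and 17.1 CPM against 0.763 to 1.33 CPM. In all 3 genes wild type 2 alone was high, and without it the log2 differences of -3.65, -2.71 and -3.07 were -0.74, -0.80 and -0.34. DESeq2 called FBL and CHORDC1 without the block only. NDUFS1, next to EEF1B2 on chromosome 2, had its high value in wild type 1, at 10.6 CPM against 2.43 CPM in wild type 2 and 0.788 to 1.62 CPM in edited libraries, and its log2 difference of -2.42 was -0.99 without wild type 1. DESeq2 called NDUFS1 in both fits (adjusted p = 0.0459, and 0.005 with the block). MTCH2, a mitochondrial outer membrane protein gene, was at 35.9 and 30.8 CPM in wild type and 2.03, 2.62 and 2.12 CPM in 3 edited libraries, and at 14.4 CPM in homozygous 1. Unlike the genes above, MTCH2 did not rest on 1 library. Its log2 difference of -2.65 stayed between -3.88 and -2.38 when each library was left out, though neither DESeq2 fit called it. LEFTY1, MTCH2 and HTR7 were among the 6 lower genes with the widest gap between the groups, and ZIC1 had the widest among the higher.

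**Figure D3:**
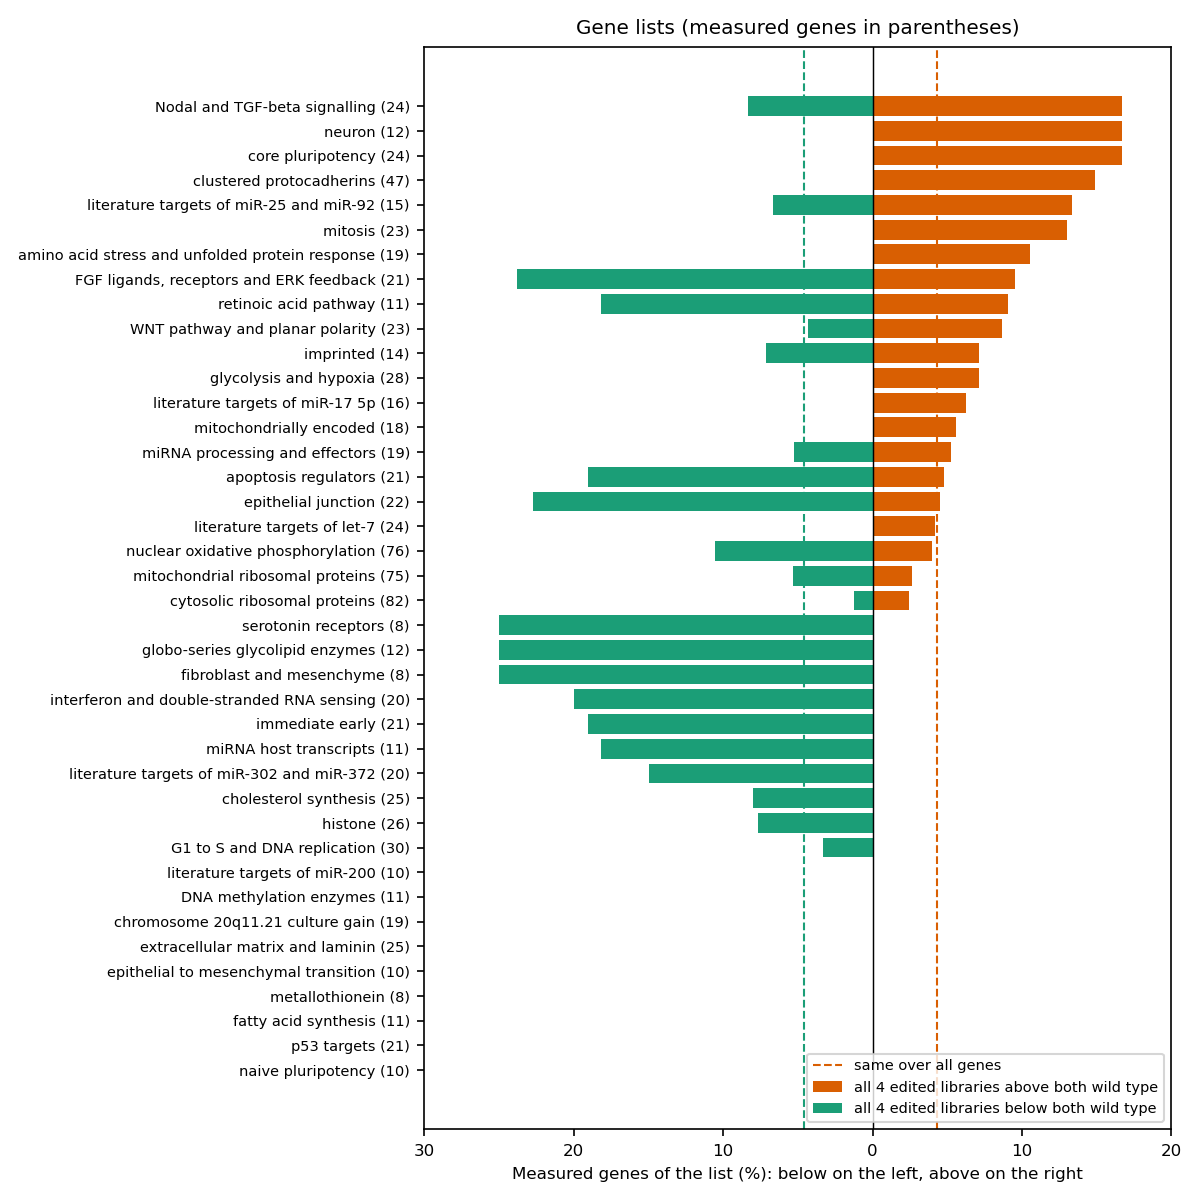
Share of each gene list (lists with 8 or more measured genes) whose 4 edited libraries all lay above (right, orange) or below (left, green) both wild-type libraries, with the share over all genes as dashed lines (4.29% above, 4.58% below). FGF and ERK feedback has 5 of 21 genes below, and the metallothioneins have 0 of 8 on either side.

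Other lists were described by their counts, to be read against 4.29% of all genes above and 4.58% below, and several were near or under these shares. Of 19 genes of miRNA processing, 1 lay above (TUT4, a terminal uridylyltransferase) and 1 below (DIS3L2, an exonuclease), with a median of 0.02. Interferon and double-stranded RNA sensing gave 0 above and 4 below of 20 measured, DDX58, TLR3, OAS3 and B2M, with a median of -0.09. Mean levels of DDX58, TLR3 and OAS3 were low, at most 3.91 CPM in either group. Apoptosis regulators gave 1 above, BCL2L11, and 4 below of 21. Nuclear oxidative phosphorylation gave 3 above and 8 below of 76 with a median of 0.02, and cytosolic ribosomal proteins 2 and 1 of 82. The p53 targets gave 0 and 0 of 21. These members lay outside the rule for named genes where their list's lowest p fell elsewhere, and were named after their values were seen.

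Among the autosomes and X, chromosome 22 held the highest share of genes below both wild-type libraries. Of its 380 genes 40 lay below (10.5%) and 12 above (3.16%), with a median log2 difference of -0.24 among the 40 and -0.02 over all 380. The 380 included 216 with a negative difference, and the 40 spread from base 17734138 to base 50628173 (GRCh38). Chromosome 19 had 61 of 1174 above (5.2%) and 33 below (2.81%), where all genes gave 4.29% and 4.58%. Its median log2 difference was -0.02 in the hemizygous and 0.09 in the homozygous libraries, so the genotypes did not move alike. Chromosomes X (6.34%), 6 (5.96%) and 5 (5.52%) had higher shares above. Among long noncoding genes 5.32% lay above and 2.86% below, and among protein-coding genes 4.14% and 4.88%.

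**Figure D4:**
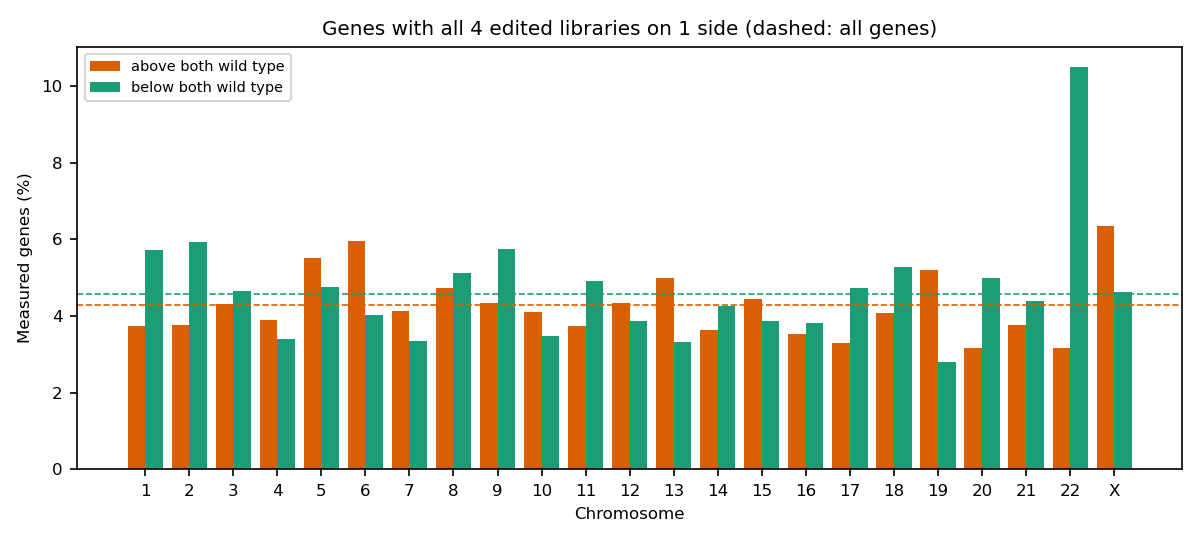
Share of the measured genes of each chromosome whose 4 edited libraries lay all above (orange) or all below (green) both wild-type libraries, with the share over all genes dashed. Chromosome 22 has 10.5% of its genes below and 3.16% above.

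Seed matches were counted in the longest 3′ UTR of 13227 genes, on the mRNA strand only, as the 7 letters that pair with bases 2 to 8. GCACTTT, the miR-17 match, was in 26.4% of these UTRs, AGCACTT, the miR-302 match that can overlap it, in 26.8%, GTGCAAT, the miR-25/92 match, in 13.7% and CTACCTC, the let-7 match, in 12.9%. Genes above both wild-type libraries held a miR-17 match in 33.8% and genes below in 22.7%. For miR-25/92 the shares were 19% and 10.6%, for let-7 13.9% and 11.6%, and for miR-302 28.3% and 27.0%. The share was higher among genes above than among genes below in 17 of the 18 families, among them miR-30 (24.1% and 14%), miR-200bc (23.9% and 13.6%) and miR-19 (22.7% and 13.6%). The same gene groups differed in their UTRs: the median length was 1672 bases over all, 1783 above and 1631.5 below, and the median GC content 43.7%, 40.7% and 49.2%. The part of UTR length and GC content in the shares was not tested.

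For each library, the mean log2 level of genes with a match minus that of genes without, relative to the wild-type mean, was taken as the shift of a seed family. Without correction the shifts followed the libraries. For miR-17 the hemizygous pair had 0.11 and -0.05, the homozygous pair -0.0005 and -0.07, with the wild-type libraries 0.06 above and below their mean. With trends on UTR length, GC content and level removed, a correction chosen after the data had been seen, the miR-17 shifts were 0.0084, 0.0091, 0.0104 and 0.0117, with the wild-type libraries at 0.0021 above and below their mean. For miR-25/92 they were 0.0116, 0.0193, 0.02 and 0.027, with the wild-type libraries 0.0097 on either side. These were the 2 of 18 families in which all 4 edited libraries lay above both wild-type libraries, 1 of them of the 5p and 1 of the 3p arm. The sizes are far below the differences of single genes, and no test was made of them.

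The corrected let-7 shifts, -0.0015, 0.0101, 0.0096 and 0.0127, overlapped with the wild-type libraries, which lay as far from their mean as wild type 1 at -0.0072. For miR-302 they were -0.0193, -0.0068, -0.0068 and 0.0039, on both sides of 0. Averaged over 9 families per arm, the corrected shift was 0.0021 for 5p and 0.0014 for 3p, and the uncorrected one -0.0062 and -0.0076. Of 20 measured genes that the literature names as targets of the miR-302 family, 0 lay above and 3 below both wild-type libraries, LEFTY1, TNFAIP1 and DAZAP2, with a median log2 difference of -0.04. All genes gave 4.29% above and 4.58% below. BCL2L11, a pro-apoptotic target of miR-17 and miR-92, was at 35.5 and 33.6 CPM in wild type and 36.4 to 42.7 CPM in edited libraries (log2 difference 0.20 ± 0.11, edgeR unadjusted p = 0.109). The MOAP1 gene, which holds 2 miR-25/92 matches, was in contrast at 1.72 and 1.84 CPM in wild type and 0.0949 to 1.03 CPM in edited libraries.

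**Figure D5:**
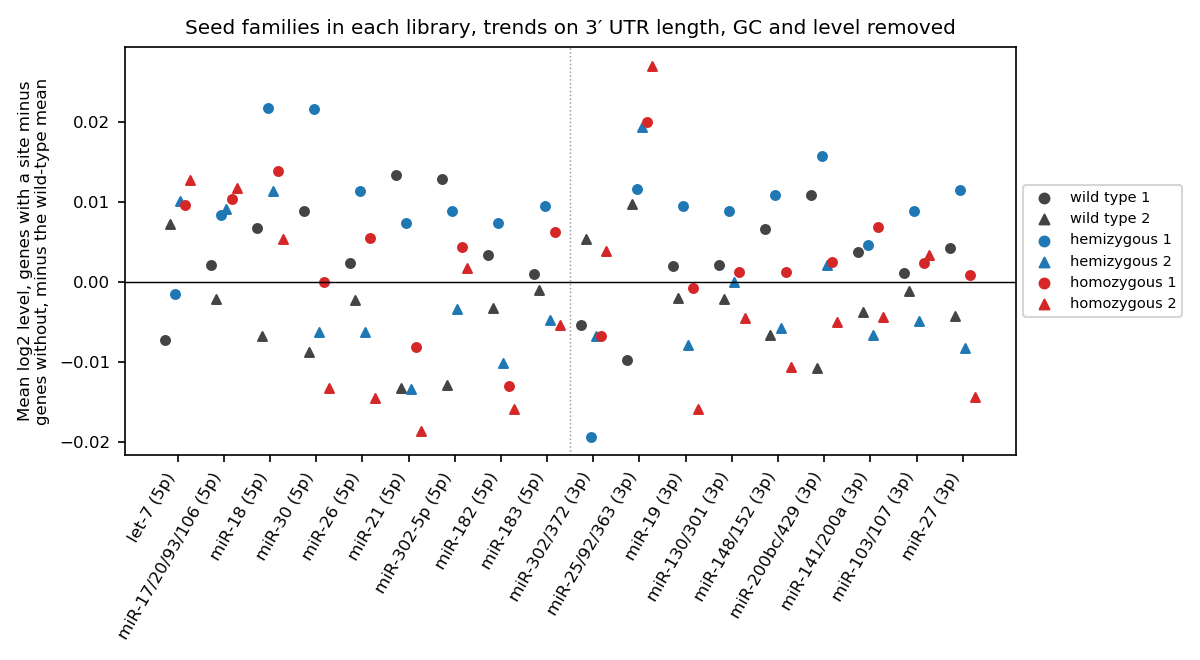
Shift of each seed family in each library after removal of trends on 3′ UTR length, GC content and level, 5p families left of the dotted line and 3p families right. The 4 edited libraries of miR-17 (0.0084 to 0.0117) and of miR-25/92 (0.0116 to 0.027) lie above both wild-type libraries, and in the other families the groups overlap.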

How the data were processed

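RNA sequencing of 6 samples of H1 cells was analysed from the raw counts per gene that the authors deposited, whole numbers with no normalization. Per the submitters' processing notes, cutadapt and HISAT2 were used with the hg38 build, and libraries were made from total RNA with an unstranded kit, per the labels' protocols. Versions, counting program and annotation were not given in the sources used here. Reads carry no molecular identifiers.

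Groups come from the sample titles. The main test was edgeR 4.0.16 (R 4.3.3), TMM normalization, filterByExpr (0 genes removed), quasi-likelihood, 4 edited against 2 wild-type libraries, 4 residual degrees of freedom, adjusted p under 0.05 over 16199 genes. Alternatives were DESeq2 1.42.0, limma 3.58.1, RLE size factors, a mean of at least 1 CPM, the replicate number as a block and leaving out each library. Log2 CPM used a prior count of 2. The edgeR script was tested on simulated data. Columns not used numbered 0.

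After genotype means were removed, same-numbered libraries deviated together (correlations 0.741, 0.357 and 0.476); with only 2 numbers this is a hint from the data, and the labels do not say what a number marks.

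Gene positions and 3′ UTRs came from GENCODE release 29 (273 genes not matched), seeds from RefSeq. Named genes were DICER1, the 10 per direction with the lowest unadjusted p and the 6 with the widest gap (mean CPM at least 5) among non-overlapping genes of at least 1 CPM, and up to 1 gene per direction and list. Other genes, among them those called only by DESeq2 and further list members, were picked with their values in view. The comparison, the gene lists and the named genes' rule were chosen with earlier results of these data known. Some list members are not reported here.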

Additional observations from a re-analysis of the deposited data

Results flagged for a closer look

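Among the 4 edited libraries of each of 81 named genes, 6 genes had 1 library far from the other 3 by Dixon's criterion, and chance gives that in about 1 in 20 groups. MTCH2 was at 14.39 CPM in homozygous 1 and 2.034 to 2.619 CPM in the others. MT1H was at 35.41 CPM in hemizygous 1 and 62.95 to 66.74 CPM in the others. CYTH2 was at 37.13 CPM in hemizygous 1 against 43.18 to 43.73 CPM. APBB1 was at 18.55 CPM in homozygous 1 against 20.21 to 20.55 CPM. The mitochondrial ribosomal protein gene MRPL44 was at 69.05 CPM in homozygous 1 against 63.76 to 63.92 CPM. The noncoding gene ENSG00000253507 was at 82.51 CPM in homozygous 1 against 126.1 to 132.2 CPM.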

How the results depend on the processing

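The edgeR counts of 0 higher and 0 lower genes were 0 with the replicate block, with 3 genotypes, with both, with RLE size factors, with a mean of at least 1 CPM and with limma-voom. DESeq2 gave 3 and 5, and DESeq2 with the replicate block 27 and 15. When each library was left out in turn edgeR called 0 to 0 genes higher and 0 to 2 lower: CHORDC1 and EEF1B2 without wild type 1, and MTCH2 without homozygous 1. Counts of genes on 1 side ranged over the libraries left out from 867 to 3106 above and 922 to 2834 below, and with pairing from 2398 to 6372 above and 2529 to 6007 below. Fewer libraries make these criteria easier to meet, most so for a wild-type library, and leaving out hemizygous 1 gave 1906 above and 1678 below. With RLE size factors the 4 counts were 713, 733, 2010 and 2061, and with a mean of at least 1 CPM 613, 711, 1794 and 2014. The fold changes of 81 named genes gave 0 reversals in 1133 recomputed values. Most of these genes were picked because all edited libraries lay on 1 side of wild type. That choice largely fixes the sign, so the absence of reversals is no measure of stability. The median of 31 of 46 lists changed sign in some alternative, 0 of them under RLE and 2 under the replicate block. Of 18 seed families all changed sign in some alternative and 9 when the trends were removed. The depth, at most 52924532 counts in a library, leaves genes near 1 CPM on few reads, and 2 wild-type libraries set the precision.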
